A study of Rattus norvegicus with 2 samples.

Results

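The interleukins and interleukin receptors described here were the probe sets, outside the controls, whose annotation gave exactly 1 gene symbol beginning with Il and a digit. There were 64 such probe sets of 31042, and they covered 51 of 14217 genes. By general knowledge of each symbol, 23 genes were ligands, 22 were receptor chains, 3 were decoy receptors and 3 were antagonists or binding proteins. A further 2 probe sets named an interleukin receptor symbol together with a second symbol and were left out.

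Interleukins are secreted signals between leukocytes, epithelium, endothelium and stroma, and each acts through a complex of receptor chains on the receiving cell. In the lung, cytokines of the IL-1 family such as IL-33 and IL-18 are stored inside cells and released on damage or after cleavage, whereas most T-cell interleukins are made briefly, after stimulation. Receptor chains are often shared: gp130 (*Il6st*) serves the IL-6 family, the common gamma chain (*Il2rg*) serves IL-2, IL-4, IL-7, IL-9, IL-15 and IL-21, and the accessory protein *Il1rap* serves IL-1, IL-33 and IL-36.

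Total RNA of rat lung was hybridised to 2 Affymetrix Rat Genome 230 2.0 arrays, 1 prepared by each of 2 experimenters, called experimenter 1 and experimenter 2 in the order of their titles. The labels name lung for both and give no strain, sex, age, number of animals, genotype or treatment, nor whether the same lung was used. *Sftpc*, the surfactant protein C gene of alveolar type 2 cells, measured 14.39 and 14.36, at percentiles of 99.997 and 99.987 among the probe sets of each array. With 1 array per experimenter no difference has a replicate error, so no test was made, and a fixed size of 1.5-fold was used only to count.

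Values are RMA expression values on the log2 scale, given for experimenter 1 first and experimenter 2 second. A percentile is a probe set's place among the 31042 probe sets of 1 array, and each gene is given by its brightest probe set (highest mean of both arrays). Values of different probe sets also carry the binding strength of their probes, and they are not scaled to transcript length, so the order of levels below is an order of probe set brightness and not of RNA amount. In whole lung RNA, fewer cells of a type and less RNA per cell cannot be told apart. RMA gives no detection calls, so whether the dimmest members were above background was not known.

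Ligand genes were mostly dim and receptor chain genes mostly were not. The 23 ligands had a median level of 4.43 for experimenter 1 and 4.44 for experimenter 2, at median percentiles of 25.1 and 26.1. The 22 receptor chains had medians of 7.67 and 7.44, at percentiles of 67.7 and 65.1. The median of the receptor chains was therefore 3.24 higher for experimenter 1 and 3.003 higher for experimenter 2 on the log2 scale. All 14217 genes, taken the same way, had medians of 7.59 and 7.57, so the receptor chains lay close to the middle of all genes and the ligands lay below it. The 22 receptor chains had 32 probe sets and the 23 ligands had 26, so the brightest was chosen from more probe sets for receptor chains. Over the mean of both arrays the gap was 3.05, and 2.32 with the second brightest probe set.

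Counted against the array-wide median (6.31, over every probe set's mean of both arrays), 7 of 23 ligands (30.4%) and 15 of 22 receptor chains (68.2%) were at or above it, where 67.2% of all genes were. With the mean over probe sets these counts were 6 ligands and 12 receptor chains, and with the second brightest probe set 6 and 11. The share of all genes was not taken for these 2 choices. By brightest probe set, means under 4 were found for 10 ligands and 2 receptor chains, and means of at least 8 for 6 ligands and 8 receptor chains. The ranges overlapped across nearly their whole length, from 2.66 to 11.88 for ligands and from 3.74 to 11.37 for receptor chains over both arrays.

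**Figure D1:**
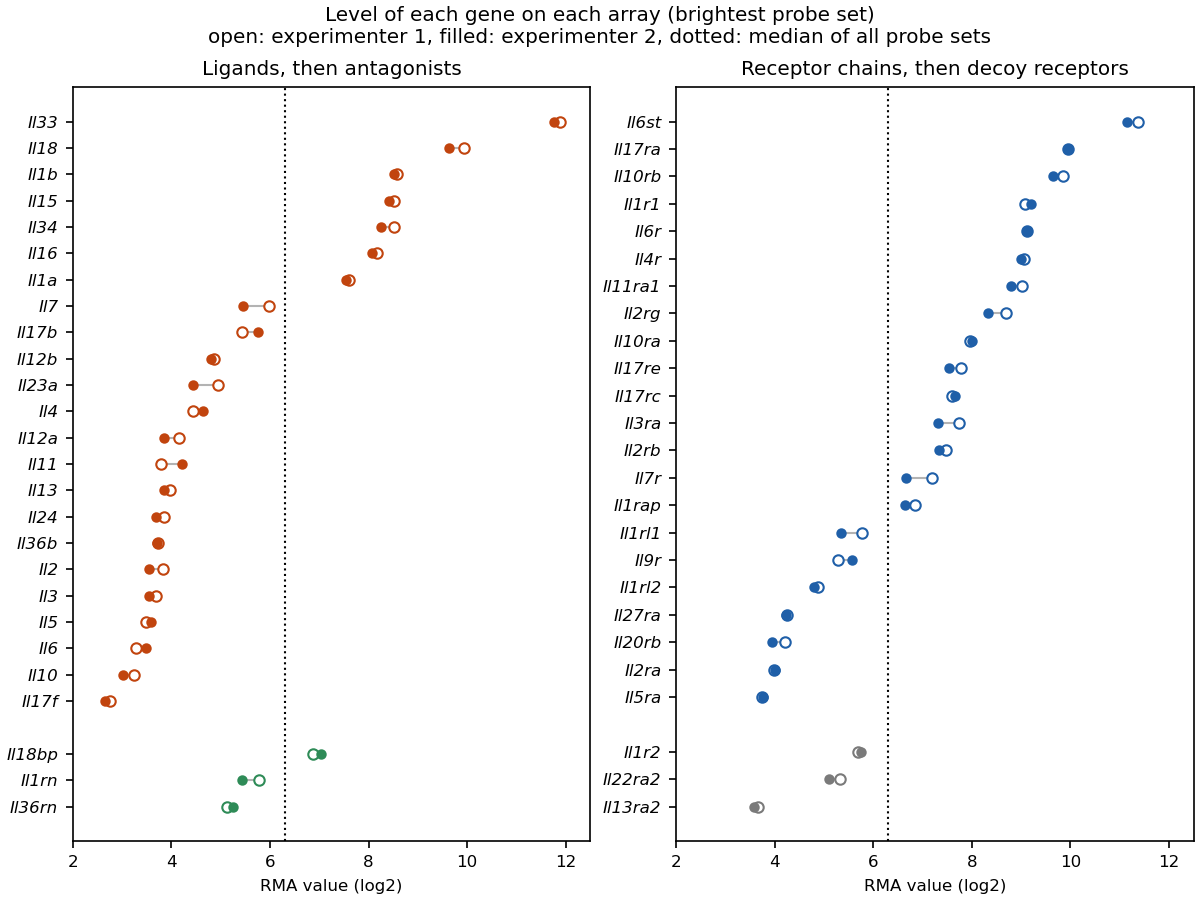
RMA value (log2, horizontal axis) of each of the 51 genes on the array of experimenter 1 (open) and experimenter 2 (filled), by the gene's brightest probe set, with ligands and antagonists on the left and receptor chains and decoy receptors on the right. The 7 brightest ligands lie above the array-wide median (6.31, dotted) and the other 16 below it, while 15 of 22 receptor chains lie above.

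The kind of sequence record behind a probe set moved with this contrast. Of the ligand genes, 17 were represented by a probe set annotated with an mRNA record and 6 by one annotated with an expressed sequence tag (EST), a short single-read cDNA fragment. Among receptor chain genes the numbers were 10 and 12. Over all probe sets with 1 symbol, EST probe sets had a median mean level of 7.15 (15873 probe sets) and mRNA probe sets one of 5.91 (4376). With every probe set counted on its own, ligands and receptor chains had medians of 4.53 (19 probe sets) and 4.84 (15) among mRNA records, and of 8.11 (7) and 7.99 (17) among EST records. The receptor chains were then 0.31 higher among mRNA records, while the gap among EST records was -0.13, against 2.84 with both kinds pooled. By brightest probe set, the gap was 2.48 over genes with mRNA records and 0.97 over genes with EST records. The part of the record kind in the contrast between ligands and receptor chains was not tested.

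**Figure D2:**
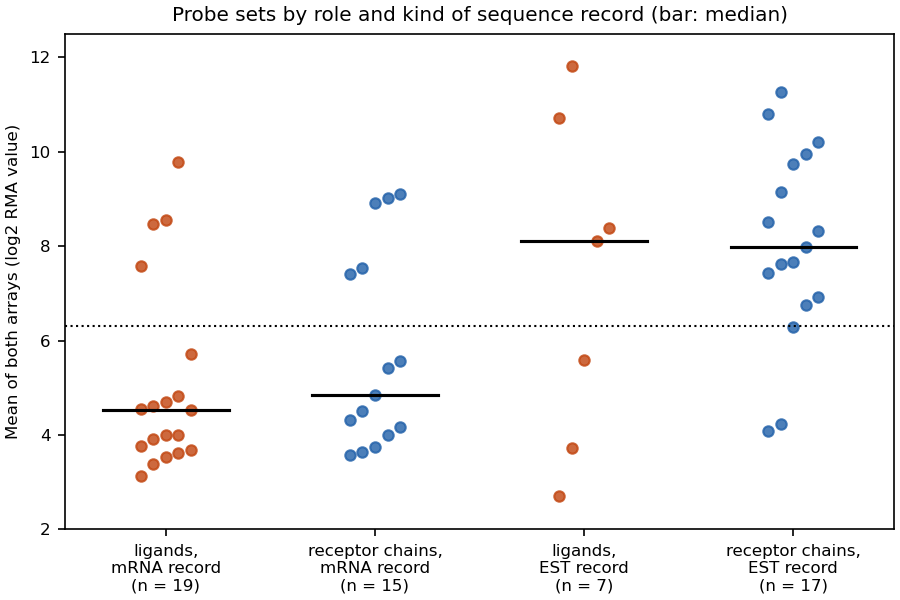
Mean of both arrays (log2 RMA value, vertical axis) of each ligand and receptor chain probe set, split by the kind of sequence record it is annotated with (n under each column), with medians as bars. The medians of ligands and receptor chains are 4.53 and 4.84 among mRNA records and 8.11 and 7.99 among EST records, and the dotted line is the array-wide median (6.31).

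Among the ligands, *Il33* was the brightest. It encodes IL-33, an alarmin kept in the nucleus of epithelial and other barrier cells. Its probe sets measured 11.88 and 11.77, and 10.68 and 10.74, so each of them lay above 96% of the probe sets on both arrays. *Il18*, whose product is cleaved by caspase-1 and induces interferon gamma, measured 9.92 and 9.63, at percentiles of 92.5 and 90.6. *Il1b*, the secreted IL-1 of macrophages, measured 8.57 and 8.52, and *Il1a*, the IL-1 that also acts from the cell membrane and nucleus, measured 7.61 and 7.55. By brightest probe set, the IL-1 family thus gave 4 of the 7 ligands above the array-wide median, and its remaining measured ligand, *Il36b*, measured 3.73 and 3.70. The second probe set of *Il1a* lay below that median, at 4.46 and 4.76.

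The other 3 bright ligands belonged to no single receptor family. *Il15*, which maintains NK and memory T cells and is presented by neighbouring cells, measured 8.52 and 8.42. *Il34*, a ligand of the macrophage colony-stimulating factor receptor, measured 8.52 and 8.25. *Il16*, a chemoattractant that binds CD4, measured 8.17 and 8.06. These values lay within 1 unit of each other and of *Il1b*, at percentiles from 73.3 to 79.6.

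Between these and the dim ligands stood *Il7* and *Il17b*. *Il7*, the stromal survival factor of T and B cell precursors, measured 5.99 and 5.45, and *Il17b*, an IL-17 relative that binds *Il17rb*, measured 5.42 and 5.76. The subunits of IL-12 and IL-23 followed, cytokines of antigen-presenting cells: *Il12b* measured 4.87 and 4.81, *Il23a* 4.94 and 4.44, and *Il12a* 4.15 and 3.86.

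Most helper T cell interleukins and the IL-6 and IL-10 relatives lay below the ligand median, and *Il4* lay at it. Type 2 cytokines, which drive eosinophils, mast cells and mucus, measured 4.43 and 4.63 for *Il4*, 3.98 and 3.85 for *Il13*, and 3.49 and 3.59 for *Il5*. *Il2*, the T cell growth factor, measured 3.83 and 3.54, and *Il3*, a growth factor of basophils and mast cells, 3.69 and 3.54. All 5 lay below the 30th percentile on both arrays.

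*Il6*, the inducer of the acute-phase response, measured 3.29 and 3.48, at percentiles of 7.93 and 11.7. Its relative *Il11* measured 3.78 and 4.21, and *Il24*, of the IL-10 family, measured 3.84 and 3.69. The 3 lowest ligands by mean were *Il6*, *Il10*, the anti-inflammatory cytokine of regulatory T cells and macrophages, at 3.23 and 3.01, and *Il17f*, a neutrophil-recruiting cytokine, at 2.76 and 2.66. *Il17f* was at percentiles of 1.62 and 1.27, near the floor of both arrays (2.31 and 2.26).

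Among the receptor chains, those of the IL-6 family had the highest family median (9.07 and 8.96). *Il6st*, the signalling chain gp130, measured 11.37 and 11.15, at percentiles of 98.1 and 97.7. *Il6r*, the chain that binds IL-6, measured 9.11 and 9.12, and *Il11ra1*, the chain that binds IL-11, 9.03 and 8.80. *Il27ra*, the IL-27 receptor chain of lymphocytes, was the exception in this family at 4.26 and 4.23.

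The IL-17 receptor chains had medians of 7.77 and 7.65 and the IL-10 receptor chains medians of 7.97 and 8.01, beside medians of 7.59 and 7.57 over all genes. *Il17ra*, the shared chain for IL-17A, IL-17F and IL-25, measured 9.94 and 9.95, *Il17re*, which pairs with it for IL-17C, 7.77 and 7.54, and *Il17rc*, its partner for IL-17A and IL-17F, 7.60 and 7.65. All 3 lay above the array-wide median on both arrays. *Il10rb*, shared by IL-10 and IL-22, measured 9.86 and 9.64, *Il10ra*, the specific IL-10 chain of leukocytes, 7.97 and 8.01, and *Il20rb*, the epithelial chain for IL-19, IL-20 and IL-24, 4.21 and 3.95.

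Chains of the common gamma family, with *Il4r*, ran from 3.98 to 9.06 for experimenter 1 and from 4.01 to 8.99 for experimenter 2. *Il4r*, the chain for IL-4 and IL-13, measured 9.06 and 8.99, and *Il2rg* itself measured 8.69 and 8.33. *Il2rb*, the beta chain for IL-2 and IL-15 on NK and T cells, measured 7.48 and 7.34, and *Il7r*, the IL-7 receptor of lymphocytes, 7.19 and 6.67. *Il9r*, the IL-9 receptor, measured 5.28 and 5.57. *Il2ra*, the high-affinity IL-2 chain of regulatory and activated T cells, measured 3.98 and 4.01.

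Of the 4 receptor chains of the IL-1 family, 2 lay above the array-wide median by their brightest probe sets. *Il1r1*, the signalling IL-1 receptor, measured 9.07 and 9.21, and *Il1rap* 6.85 and 6.64. Their other probe sets lay below that median, with means of 3.63 and 3.57 for *Il1r1* and 4.50 for *Il1rap*. *Il1rl1*, which encodes ST2, the receptor of IL-33 on mast cells, type 2 innate lymphoid cells and regulatory T cells, measured 5.78 and 5.35, at percentiles of 43.1 and 38.0. *Il1rl2*, the IL-36 receptor, measured 4.87 and 4.81. For the receptors of the beta-chain cytokines, *Il3ra* measured 7.74 and 7.32, and *Il5ra*, the IL-5 receptor of eosinophils, 3.74 and 3.77, the lowest mean of any receptor chain.

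None of the 3 decoy receptors reached the array-wide median. *Il1r2*, which binds IL-1 without signalling, measured 5.69 and 5.76, *Il22ra2*, a soluble IL-22 binding protein, 5.32 and 5.10, and *Il13ra2*, which captures IL-13, 3.67 and 3.57. Of the antagonists, *Il18bp*, which neutralises IL-18, measured 6.88 and 7.03 and was the 1 above that median. *Il1rn*, the IL-1 receptor antagonist, measured 5.77 and 5.42, and *Il36rn*, the IL-36 receptor antagonist, 5.12 and 5.25.

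Setting each ligand beside its own receptor chains gave 33 pairs in which both genes were measured, including the non-interleukin chains *Csf2rb*, *Csf1r* and *Cd4*. In 17 pairs the ligand lay below the array-wide median and the chain at or above it. In 8 pairs both were at or above it, in 6 both were below, and in 2 only the ligand was above. The pairs share genes, so these counts describe the array and are not independent. By gene, 30.4% of ligands and 68.2% of receptor chains were at or above that median, against 67.2% of all genes. A dim ligand with a brighter chain would therefore be frequent under any pairing, and the counts show nothing particular to matched pairs.

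The 17 pairs with a dim ligand included *Il6* with *Il6r* and *Il6st*, *Il10* with *Il10ra* and *Il10rb*, *Il17f* with *Il17ra* and *Il17rc*, *Il11* with *Il11ra1*, and *Il4* and *Il13* with *Il4r*. The 2 pairs with only the ligand above were *Il33* with *Il1rl1*, and *Il16* with *Cd4* (5.003 and 5.16). The 8 pairs with both above included *Il1b* with *Il1r1*, *Il15* with *Il2rb* and *Il2rg*, and *Il34* with *Csf1r* (10.13 and 9.95), the receptor that marks macrophages. *Il33* with *Il1rap* was also among the 8. The pair counts rest on the brightest probe sets and were not repeated with others. Other probe sets of *Il1r1* (means of 3.63 and 3.57), *Il1rap* (4.50), *Il1a* (4.61), *Il10ra* (4.17) and *Il7r* (6.29) lay below the array-wide median. All probe sets of *Il33* and *Il6st* lay above it.

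**Figure D3:**
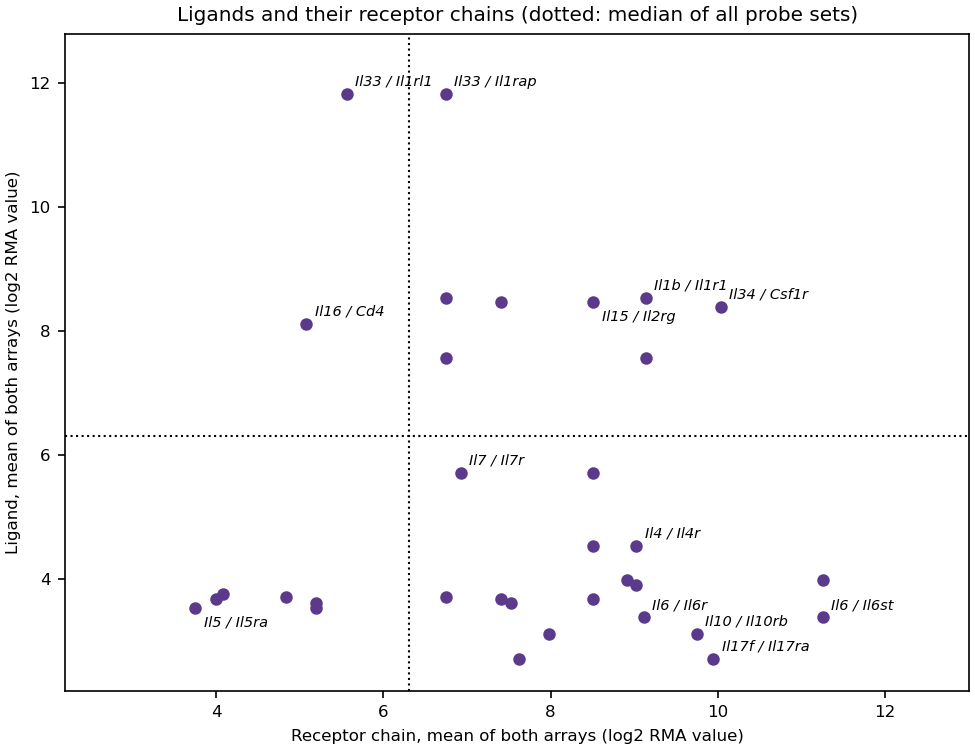
Each point is 1 ligand (vertical axis) and 1 of its receptor chains (horizontal axis), as means of both arrays (log2 RMA value) of the brightest probe set. Of 33 pairs, 17 lie in the lower right field, with a ligand below and a chain at or above the array-wide median (6.31, dotted), and 2 lie in the upper left field.

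The promoters of the pairs at opposite corners of that plot are shown here, because *Il33* and *Il1rl1* had the bright ligand and dim receptor, and *Il6* and *Il6r* the reverse. Each is the 250 bases before an annotated RefSeq start site in rat assembly GRCr8, written 5′ to 3′ on the gene's strand, and *Il33* has 2 annotated start sites. Capitals mark matches, on either strand, to a TATA box (TATAAA), a GC box (GGGCGG), an AP-1 motif (TGANTCA), an NF-kB consensus motif of 10 letters or a STAT motif (TTCNNNGAA), and overlapping matches were counted separately. The regions are chr1:237115323-237115572 and chr1:237134696-237134945 on the plus strand for *Il33*, chr9:50203388-50203637 on the plus strand for *Il1rl1*, chr4:5894576-5894825 on the minus strand for *Il6*, and chr2:177645210-177645459 on the minus strand for *Il6r*.
Il33, start site 1: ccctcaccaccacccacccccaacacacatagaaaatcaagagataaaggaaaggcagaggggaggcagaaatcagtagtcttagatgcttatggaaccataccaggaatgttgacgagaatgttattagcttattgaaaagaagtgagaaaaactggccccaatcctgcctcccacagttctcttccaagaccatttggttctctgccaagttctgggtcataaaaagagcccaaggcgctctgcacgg
Il33, start site 2: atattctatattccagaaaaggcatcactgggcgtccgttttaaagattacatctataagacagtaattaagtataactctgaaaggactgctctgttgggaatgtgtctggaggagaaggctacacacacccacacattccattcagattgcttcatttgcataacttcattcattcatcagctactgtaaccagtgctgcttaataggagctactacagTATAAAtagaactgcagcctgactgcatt
Il1rl1: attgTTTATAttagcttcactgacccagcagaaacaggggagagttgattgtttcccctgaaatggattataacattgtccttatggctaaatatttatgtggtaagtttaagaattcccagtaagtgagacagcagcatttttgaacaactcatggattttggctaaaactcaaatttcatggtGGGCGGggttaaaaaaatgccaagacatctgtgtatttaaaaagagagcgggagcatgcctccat
Il6: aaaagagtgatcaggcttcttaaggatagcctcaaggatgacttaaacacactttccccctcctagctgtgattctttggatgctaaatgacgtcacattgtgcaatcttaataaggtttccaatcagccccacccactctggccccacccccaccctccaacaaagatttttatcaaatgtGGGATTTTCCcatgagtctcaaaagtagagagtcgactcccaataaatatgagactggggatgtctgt
Il6r: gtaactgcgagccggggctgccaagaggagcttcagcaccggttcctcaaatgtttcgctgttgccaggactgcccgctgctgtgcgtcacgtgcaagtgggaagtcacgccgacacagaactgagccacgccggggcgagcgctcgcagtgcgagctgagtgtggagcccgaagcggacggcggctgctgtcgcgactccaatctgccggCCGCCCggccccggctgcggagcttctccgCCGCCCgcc

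Of these 5 stretches, only that of the second *Il33* start site had an exact TATAAA match close before it, from 29 to 24 bases upstream. Variants of the TATA box were not searched. *Il6* had the NF-kB motif GGGATTTTCC from 68 to 59 bases upstream, and a match to this motif was found in 6.33% of all 33469 promoters of the same length. *Il6r* had 2 GC boxes on the opposite strand (CCGCCC), at 39 to 34 and 9 to 4 bases upstream. *Il1rl1* had 1 GC box, from 65 to 60 bases upstream, and a TATA box match on the opposite strand at 246 to 241 bases. A match is a stretch of letters and not a shown binding site, and which start site was used in these lungs was not measured.

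Promoter sequence played no part in the choice of members, and it was compared between the roles as a description, with no test. RefSeq promoters were found for 38 of the 51 genes, 18 of 23 ligands and 18 of 22 receptor chains, with 19 start sites in each role. A GC box was present in 3 of 19 ligand promoters (15.8%) and 12 of 19 receptor chain promoters (63.2%), against 30.5% of all promoters. The median number of CG dinucleotides per 250 bases was 3 for ligands, 8 for receptor chains and 5 for all promoters. At least 10 were found in 2 of 19 ligand promoters (10.5%) and 7 of 19 receptor chain promoters (36.8%), against 35.9% of all promoters. By that measure the receptor chain promoters were close to promoters in general. *Il1rap* had the most CG dinucleotides, with 33 and 29 at its 2 start sites, followed by *Il6r* with 29 and *Il3ra* with 19. *Il12a* and *Il11*, with 11 each, were the richest ligand promoters.

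TATA boxes were found in 5 of 19 ligand promoters (26.3%), those of *Il33*, *Il1b*, *Il1a*, *Il12a* and *Il2*, and in 2 of 19 receptor chain promoters (10.5%), with 12.9% of all promoters. AP-1 motifs were found in 4 ligand promoters (*Il15*, *Il16*, *Il1a* and *Il11*) and 0 receptor chain promoters, with 6.34% of all. NF-kB motifs were found in 1 ligand promoter (*Il6*) and 4 receptor chain promoters (*Il1r1*, *Il27ra* and both start sites of *Il1rap*), with 6.33% of all. STAT motifs were found in 2 ligand promoters (*Il24* and *Il36b*) and 0 receptor chain promoters, with 7.67% of all. The ligand promoters without a GC box held the brightest ligand, *Il33*, as well as the dimmest, *Il17f*.

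Between the arrays, the interleukin genes differed about as much as genes in general, with a median absolute difference of 0.155, against 0.159 over all genes. Over the 51 genes the difference, experimenter 2 minus experimenter 1, had a median of -0.10 and an SD over genes of 0.21 on the log2 scale, against -0.049 and 0.26 over all 14217 genes. The median was -0.11 for ligands and -0.10 for receptor chains, a gap of 0.0037 between the roles. This small gap depended on the setting. The medians of ligands and receptor chains were -0.10 and -0.049 with the second brightest probe set. For genes at or above the array-wide median they were -0.11 and -0.21. By brightest probe set, values were lower for experimenter 2 in 18 of 23 ligands and 14 of 22 receptor chains, against 58.7% of all genes. At 1.5-fold, 0 of the 51 genes were apart, where 3.24% of all genes were (1.93% higher and 1.31% lower for experimenter 2). Across the 51 genes, which are not independent replicates and span the whole range of levels, the arrays correlated with r = 0.996.

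**Figure D4:**
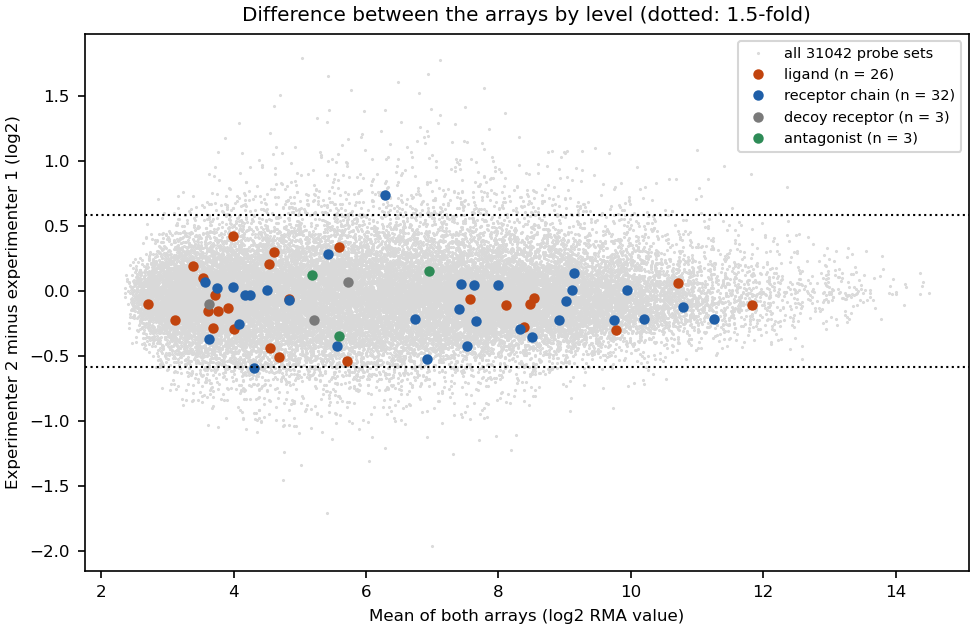
Difference between the arrays (experimenter 2 minus experimenter 1, log2, vertical axis) against the mean of both (log2 RMA value, horizontal axis) for all 31042 probe sets (grey) and the 64 interleukin and receptor probe sets by role. Of the 64, 1 lies above and 1 below the dotted 1.5-fold lines.

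The largest differences in each direction were under 1.5-fold by the brightest probe sets. Lower for experimenter 2 were *Il7*, with a difference of -0.54, *Il7r* with -0.53, *Il23a* with -0.51, *Il1rl1* with -0.43 and *Il3ra* with -0.42. Higher for experimenter 2 were *Il11* with 0.42, *Il17b* with 0.34, *Il9r* with 0.29, *Il4* with 0.21 and *Il6* with 0.19. The 5 higher genes all had means under the array-wide median. Among probe sets in the same 1 of 10 bins of mean level, 8.63% were at least as far apart as *Il7*, 8.60% as *Il7r* and 12.0% as *Il11*. At the other end, *Il17ra*, *Il6r* and *Il5ra* had differences of 0.0056, 0.0074 and 0.025.

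Several receptor chains are known from lymphocytes, and their differences were mixed. By brightest probe set they were -0.53 for *Il7r*, -0.36 for *Il2rg*, -0.13 for *Il2rb*, -0.03 for *Il27ra*, 0.03 for *Il2ra* and 0.04 for *Il10ra*. The second probe set of *Il7r* went the other way, with a difference of 0.74. Of the 8 T cell markers listed, all were measured and 7 were lower for experimenter 2, against 58.7% of all genes. Their median difference was -0.27, with levels from 5.003 to 9.21 for experimenter 1 and from 5.16 to 8.87 for experimenter 2, and their sum on the linear scale was 11.06 and 10.80 as log2 values. *Lck*, a kinase of the T cell receptor, measured 9.21 and 8.87, and *Cd3d*, a chain of that receptor, 7.57 and 7.18. These were among the larger falls, while *Cd8a* and *Cd3e* had differences of -0.11 and -0.13. *Cd4*, the 1 marker that was higher, measured 5.003 and 5.16.

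Over all listed cell types, T cells included, 28 of the 38 measured markers were lower for experimenter 2, against 58.7% of all genes. Median differences were -0.18 for NK cells (4 of 5 measured), -0.19 for macrophages (2 of 4), -0.19 for endothelium (4 of 5) and 0.036 for mast cells (5 of 5). They were -0.066 for alveolar type 2 cells (5 of 5), -0.045 for fibroblasts (4 of 4), -0.014 for neutrophils (4 of 4) and -0.013 for B cells (2 of 4). The median over all genes was -0.049. The part of any of these in the differences of the receptor chains was not tested.

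A second look at the same genes came from the 10 that had more than 1 probe set. For 3 of the 10 all probe sets differed in the same direction between the arrays, against 44.3% of the 4525 such genes on the arrays. The 3 were *Il7*, *Il1rl1* and *Il6st*, each lower for experimenter 2. The second probe set of *Il7* measured 4.77 and 4.33, a difference of -0.44, beside -0.54 for its first. The second of *Il1rl1* measured 4.60 and 4.02, a difference of -0.59, beside -0.43. For these 2 genes every probe set was lower by at least 0.4, which held for 0.486% of the 4525 genes. This bound lies just under the smallest of these differences, -0.43, so the share describes them and is not a test. The 4 probe sets of *Il6st* had differences from -0.29 to -0.12.

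*Il7r* went the other way: its brightest probe set had a difference of -0.53, while its second measured 5.92 and 6.65, a difference of 0.74 or 1.67-fold. Opposite differences of at least 0.5 were found for 0.663% of the 4525 genes. With every probe set counted, *Il7r* by this second probe set and *Il1rl1* by its second, at 1.503-fold lower, were the 2 of 64 beyond 1.5-fold, against 4.35% of all probe sets (2.05% higher and 2.3% lower). The remaining 6 genes, *Il33*, *Il1a*, *Il1r1*, *Il1rap*, *Il10ra* and *Il17re*, had probe sets on both sides of 0.

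For 8 of these 10 genes, all but *Il7r* and *Il17re*, probe sets of the same gene lay further apart in level than any of them differed between the arrays. The probe sets of *Il1r1* had means of 9.14, 3.63 and 3.57, a range of 5.57, while the differences of these probe sets between the arrays ran from -0.37 to 0.14. Those of *Il10ra* had means of 7.99 and 4.17, those of *Il1a* 7.58 and 4.61, those of *Il6st* from 11.26 to 8.33, and those of *Il1rap* 6.75 and 4.50. A range of at least 2 was found for 5 of the 10 genes, against 53.1% of the 4525. In *Il1r1*, *Il10ra* and *Il1rap*, which had both kinds of record, the brightest probe set was annotated with an EST and the dimmest with an mRNA. Among the 4525 genes with more than 1 probe set this order was found for 521 genes and the opposite order for 324. By the dimmer probe sets, *Il1r1* and *Il10ra* would stand among the low receptor chains beside *Il2ra*.

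**Figure D5:**
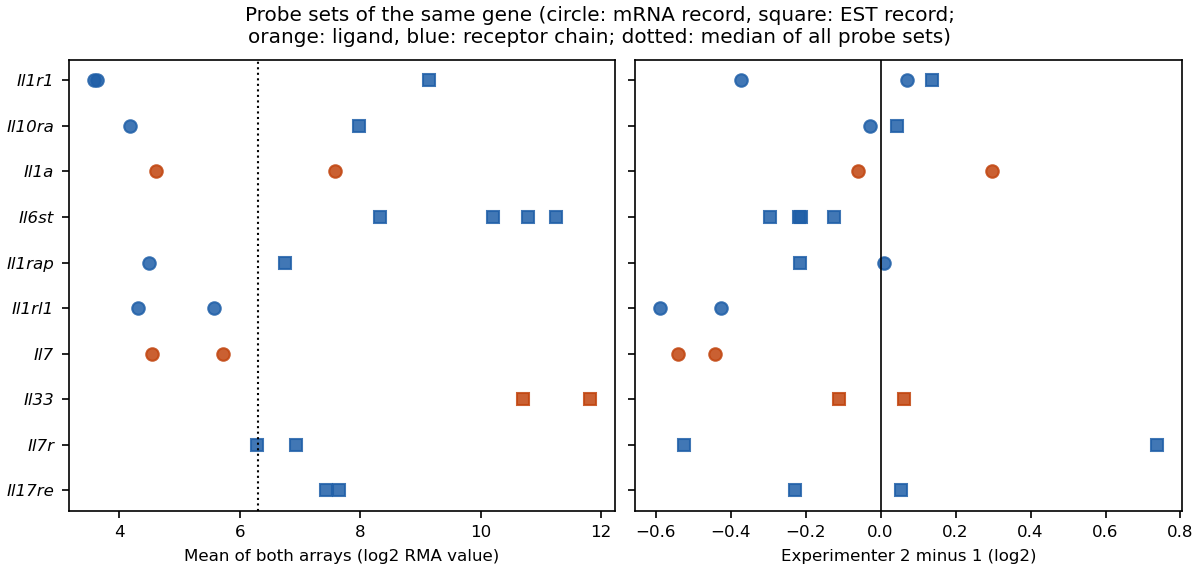
Mean of both arrays (log2 RMA value, left) and difference between the arrays (experimenter 2 minus experimenter 1, log2, right) of every probe set of the 10 genes with more than 1, with circles for mRNA and squares for EST records. The *Il1r1* probe sets span 5.57 in level, and the *Il7r* probe sets lie at -0.53 and 0.74 in difference.

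A list of 48 other genes of these pathways held kinases, STAT factors, inhibitors and adaptors, and also related cytokines and receptor chains outside the interleukin symbols. Of the 44 measured, 32 were at or above the array-wide median (67.2% of all genes), 31 were lower for experimenter 2 (58.7% of all genes) and 0 were 1.5-fold apart (3.24% of all genes). Their median difference was -0.08. The 5 brightest were *Jak1*, a kinase bound to gp130 and common gamma chain receptors (11.31 and 11.09), *Stat3*, the factor activated by IL-6 and IL-10 (10.38 and 10.32), *Socs5*, a feedback inhibitor (10.09 and 10.56), *Csf1r*, given above, and *Irak1*, a kinase of IL-1 receptors (9.82 and 9.56). All 4 JAK kinases were lower for experimenter 2, with *Jak3*, the partner of the common gamma chain, at 7.499 and 7.15. Of the genes that process IL-1 and IL-18, *Casp1*, the caspase that cleaves them, measured 9.21 and 9.46, and *Pycard*, the inflammasome adaptor, 9.53 and 9.54. Of the cytokines and chains outside the interleukin symbols, 3 of 12 measured reached that median, and *Csf2rb*, the common beta chain for IL-3 and IL-5, measured 5.23 and 5.17.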

How the data were processed

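The deposited table held 1 log2 value per probe set and array for 2 arrays. The authors made these log2 values with RMA, per the submitters' processing notes, which corrects background, equalises the arrays' probe intensities and summarises probes. Base 2 was inferred from their range. The RMA version and the full set of arrays it ran on are not given in the sources used. The 57 control probe sets were left out. Symbols came from the platform annotation, and all 64 were still current in the gene table of assembly GRCr8. No genomic position is given for probe sets. Records were classed as EST or mRNA by the prefix of the annotated accession.

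Members, roles, pairs and gene lists were chosen with earlier results of these data known. Every member gene could be named. Values in full were set for the 10 brightest ligands and receptor chains, decoys, antagonists, partners in pairs, the 3 lowest of each role, the 5 largest differences in each direction, and probe sets at odds. Of the signalling list, the 5 brightest were set to be named, and others are named after their values were seen. No test was possible with 1 array per experimenter, and the number of arrays limits the precision. Alternatives were other probe set choices, normalizations (loess fraction 0.3), filters, thresholds and roles. Promoters were matched by Entrez identifier. Python 3.11.15, numpy 2.4.6, pandas 2.3.3, statsmodels 0.14.6 and matplotlib 3.10.9 were used, and scripts were tested on simulated data.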

Additional observations from a re-analysis of the deposited data

How the results depend on the processing

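No paired analysis was possible because there was a single array on each side, which also means that none could be left out. Values were compared with the SD of the difference over all probe sets (0.28) for levels, with 0.1 for median differences and with 1.5 times for counts. Of 75 alternative values, 55 stayed within these limits, 19 moved and 1 reversed. These limits are wide for some results, so the tally does not measure stability. The limit of 0.1 is about as large as the median differences themselves. For counts, 12 or 11 receptor chains at or above the array-wide median in place of 15 stayed within the limit. The split by kind of sequence record was chosen after seeing the data. The gap between the medians of receptor chains and ligands, 3.05 over the mean of both arrays, was 2.48 with the mean over probe sets, 2.32 with the second brightest, 3.53 without probe sets sharing probes between transcripts and 2.65 with decoys and antagonists included. It was 0.31 for mRNA and -0.13 for EST probe sets alone, and 2.48 and 0.97 for genes whose brightest probe set was of that kind. The ligand median of 4.53 became 4.003 without shared probes, 8.11 for EST probe sets, and 6.85 and 4.003 for genes with an EST or mRNA record. The receptor chain median of 7.58 became 7.01 with the mean over probe sets, 6.85 with the second brightest, 7.99 and 4.84 for EST and mRNA probe sets, and 6.49 for genes with an mRNA record. Restricting genes to means no lower than the array-wide median moved the receptor chains' median difference from -0.10 to -0.21. The count of genes 1.5-fold apart, 0, became 2 with the second brightest probe set or each probe set on its own. The cause of these moves was not tested, and some settings use fewer genes. Median centring, loess and quantile normalization kept the sign of each median difference, but all made it smaller in size. With loess it went from -0.10 to -0.048 over all members, from -0.11 to -0.053 for ligands and from -0.10 to -0.050 for receptor chains. Low signal limits the dim ligands, since no detection calls were used.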
